A study of Homo sapiens with 12 samples.

Results

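Aminoacyl-tRNA synthetases join each amino acid to its tRNA, and the 35 genes described here are 19 cytosolic and 16 mitochondrial enzymes of that family. They were taken by symbol from a gene table of 40605 rows, in which all 35 were found. RNA came from A549 lung adenocarcinoma cells in which doxycycline switches on a gene for the kinase DYRK1B, either wild type (WT) or with an activation-loop tyrosine replaced by phenylalanine (Y273F). The titles give 4 groups of 3 libraries: WT with 2 µg/ml doxycycline for 7 days, WT control without it, Y273F with the same doxycycline treatment, and Y273F control. All 12 libraries carry the inducible system and 1 batch label. Per the series text the 3 cell populations of a group were independent and grown in parallel, and cells lacking a transgene were not analysed here. RNA was read with QuantSeq FWD V2, a stranded method in which each read starts near the 3' end of a transcript. Levels are given as CPM, counts scaled to the library's TMM-adjusted total.

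Most of the cell's protein synthesis draws on the cytosolic enzymes, whose names end in 1 (or are FARSA and FARSB, the subunits of the phenylalanine enzyme). The mitochondrial enzymes, whose names end in 2, are encoded in the nucleus, imported, and serve the few proteins made from mitochondrial DNA. GARS1 and KARS1 supply both compartments from a single gene. Several cytosolic enzymes form a multisynthetase complex held together by the scaffold proteins AIMP1, AIMP2 and EEF1E1. When amino acids run short, uncharged tRNA activates the kinase GCN2, and translation of the transcription factor ATF4 increases. ATF4 is known to raise transcription of amino acid transporters, biosynthetic enzymes and a subset of the cytosolic synthetases.

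The library numbers in the labels define sets with a step of 4, and each title group holds libraries of 3 of these sets. Libraries 2, 6 and 10 are titled WT control 2, WT doxycycline 3 and Y273F doxycycline 1. Libraries 4, 8 and 12 are titled WT doxycycline 1, Y273F doxycycline 3 and Y273F control 2 (numbers 4, 12 and 8). Libraries 1, 5 and 9 are titled WT control 1, WT doxycycline 2 and Y273F control 3, and libraries 3, 7 and 11 are titled WT control 3, Y273F control 1 and Y273F doxycycline 2. The induced gene itself, DYRK1B, was read at 28.6, 4.07 and 7.80 CPM in the libraries labelled WT doxycycline 1 to 3, against 5.796, 3.15 and 5.64 CPM in WT control 1 to 3. In the libraries labelled Y273F doxycycline 1 to 3 it had 4.65, 4.89 and 19.997 CPM, against 2.63, 12.6 and 3.22 CPM in Y273F control 1 to 3. Its level was thus higher in libraries 4, 8 and 12 than in the other 9 and did not follow the titles. A transgene without the natural 3' end would not be read as DYRK1B, and no source used here gives the construct's 3' end. The sets are described below without a test, since they are not the groups of the titles, and the labels assign no treatment to them. The title comparisons further on take each library as labelled.

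Totals were 2783265 to 9165769 counts in the even-numbered and 5081182 to 22028624 counts in the odd-numbered libraries, so that 3 counts correspond to 0.136 to 1.08 CPM. The part of depth in the patterns below was not tested. Libraries 2, 6 and 10 stood apart on principal component 1 of the 500 most variable genes (69.3% of their variance), at 42.38 to 46.4 against -20.08 to -4.64 in the other 9. The 5 epithelial and 4 A549 marker genes were read in all libraries (ALDH1A1 at 5847 to 7431 CPM), but their levels moved with the library numbers. The epithelial markers summed to 4032 to 11097 CPM in even-numbered against 3092 to 3790.4 CPM in odd-numbered libraries, and the A549 markers to 10533 to 13417 CPM in even-numbered against 12393 to 15503 CPM in odd-numbered libraries. The epithelial sum came mostly from KRT18 and KRT8. The mean log2 CPM of the 5 epithelial markers, each centred on its mean over the 12 libraries, did not split even from odd numbers. It was 0.002 to 0.25 in libraries 2, 6 and 10 and -0.26 to -0.05 in libraries 4, 8 and 12. Libraries 1, 5 and 9 had 0.12 to 0.20, and libraries 3, 7 and 11 had -0.22 to -0.15. The keratin gene KRT18 was higher in all even-numbered libraries (3081 to 8548 CPM, against 2306 to 2772 CPM in odd-numbered ones). The adhesion gene EPCAM was lower, with 4.65 to 8.37 CPM in even-numbered against 12.3 to 32.5 CPM in odd-numbered libraries, and so was AKR1C1, with 295 to 455 CPM in even-numbered against 467 to 767 CPM in odd-numbered libraries. Libraries 2, 6 and 10 were above the other 9 in KRT8, KRT18 and KRT19 and below them in CDH1, AKR1C1 and AKR1C2. Of all genes tested, 18.8% were above and 16.3% below the other 9 in libraries 2, 6 and 10. All even-numbered libraries were above all odd-numbered ones in 3.51% of all genes and below them in 2.81%. The leucocyte gene CD3E and the endothelial gene VWF were at 0 in all 12, and PTPRC, PECAM1 and CDH5 were at most at 0.225, 0.391 and 0.332 CPM. The third leucocyte gene, LYZ, had 0 to 0.435 CPM in even-numbered against 1.24 to 3.67 CPM in odd-numbered libraries, so it too split by library number. Of the fibroblast genes, COL1A1 had 197, 136 and 163 CPM in libraries 2, 6 and 10 against 13.3 to 30.8 CPM elsewhere, while COL3A1 and DCN stayed at or below 0.996 and 0.045 CPM. The part of these differences in the synthetase levels was not tested.

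Of the 35 synthetases, 34 had enough counts to be tested, all 19 cytosolic and 15 of the 16 mitochondrial genes. The exception was VARS2, the mitochondrial valine enzyme, listed at 0 counts in all 12 libraries. GTF2H4, the gene next to it on chromosome 6, which encodes a subunit of the general transcription factor TFIIH, is also listed at 0 in all 12, so no limit on the level of VARS2 was taken from the 0. As a group, the cytosolic genes were higher in even-numbered libraries. Their mean level, as log2 CPM minus each gene's mean over the 12 libraries, was 0.01 to 0.08 in libraries 2, 6 and 10 and 0.13 to 0.18 in libraries 4, 8 and 12, against -0.11 to -0.05 in libraries 1, 5 and 9 and -0.14 to -0.08 in libraries 3, 7 and 11. The even-numbered and odd-numbered libraries did not overlap in this mean. The mitochondrial genes had another order. Their mean was -0.18 to -0.10 in libraries 2, 6 and 10, and it lay at -0.03 to 0.03 in libraries 4, 8 and 12, at 0.03 to 0.10 in libraries 1, 5 and 9 and at 0.02 to 0.14 in libraries 3, 7 and 11. The mitochondrial mean was thus lowest in libraries 2, 6 and 10, and the other sets overlapped or adjoined one another. In bulk RNA a smaller share of cells with a transcript and less of it per cell cannot be told apart.

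**Figure D1:**
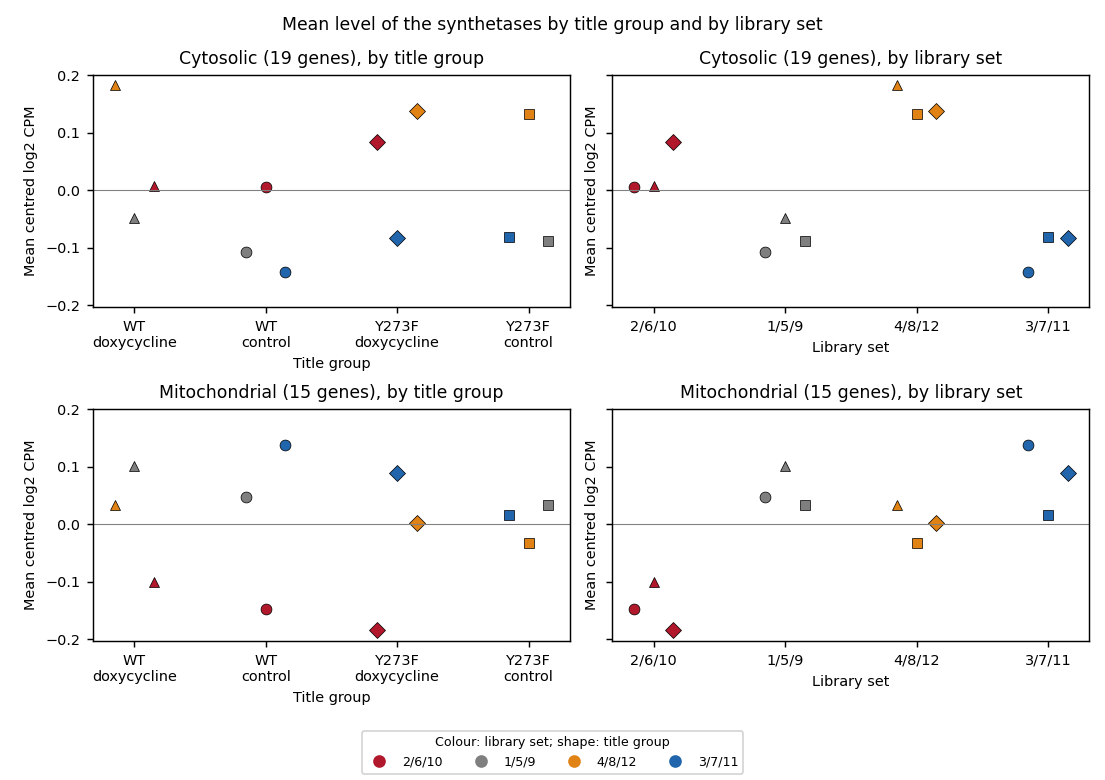
Mean level of the 19 cytosolic (top) and 15 tested mitochondrial (bottom) synthetases in each library, as log2 CPM minus each gene's mean over 12 libraries, by title group (left) and by library set (right). Each point is a library, its colour the set and its shape the title group; the cytosolic mean lies between -0.14 and 0.18 and separates even-numbered from odd-numbered libraries, while every title group spans both.

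Gene by gene, 7 of the 19 cytosolic synthetases had all 6 even-numbered libraries above all 6 odd-numbered ones: CARS1, GARS1, NARS1, SARS1, TARS1, WARS1 and YARS1. That is 36.8%, against 3.51% of all 13047 genes tested. QARS1 alone was lower in all even-numbered libraries (5.26%, against 2.81% of all genes). Of the 15 mitochondrial genes 0 were higher and 1, PARS2, was lower (6.67%).

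**Figure D2:**
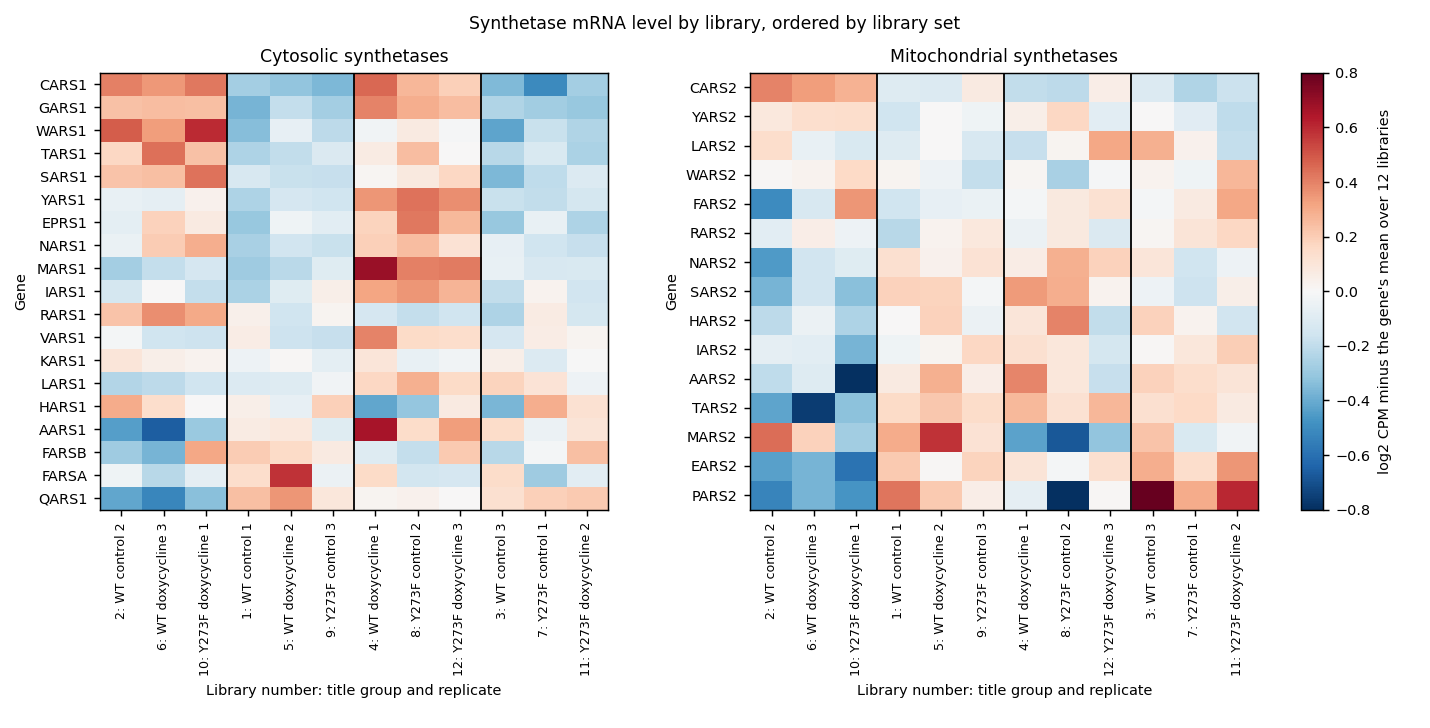
Heat map of log2 CPM minus each gene's mean over 12 libraries for the 19 cytosolic (left) and 15 tested mitochondrial (right) synthetases, with libraries ordered by set (black lines) and named by title. Genes run from those higher in even-numbered libraries (top) to those higher in odd-numbered ones (bottom); CARS1 and GARS1 head the cytosolic panel and QARS1 closes it, and PARS2 closes the mitochondrial panel.

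CARS1, GARS1 and SARS1 belong to both the genes named for their wide range and the 7 above. CARS1 (chromosome 11, 3000929 to 3057423 on GRCh38.p14), the cysteine enzyme, was read at 122, 117 and 123 CPM in libraries 2, 6 and 10 and at 126, 110.3 and 105 CPM in libraries 4, 8 and 12, against 76.0, 73.7 and 71.3 CPM in libraries 1, 5 and 9 and 71.9, 64.3 and 75.8 CPM in libraries 3, 7 and 11. GARS1 (chromosome 7, 30594735 to 30634033), the glycine enzyme of both compartments, was read at 189, 191 and 190.4 CPM in libraries 2, 6 and 10 and at 212, 197 and 191 CPM in libraries 4, 8 and 12, against 125, 141 and 134 CPM in libraries 1, 5 and 9 and 137, 133 and 130.4 CPM in libraries 3, 7 and 11. SARS1 (chromosome 1, 109213893 to 109238182), which charges serine and selenocysteine tRNAs, was read at 68.4, 69.1 and 78.7 CPM in libraries 2, 6 and 10 and at 58.9, 61.4 and 65.4 CPM in libraries 4, 8 and 12, against 53.4, 51.4 and 51.4 CPM in libraries 1, 5 and 9 and 45.5, 50.5 and 53.9 CPM in libraries 3, 7 and 11. For CARS1 and GARS1 both even-numbered sets lay close together and above every odd-numbered library, whereas SARS1 was highest in libraries 2, 6 and 10. WARS1 is given in full further on, and the remaining 3 genes, named after their values were seen, by range. TARS1, the threonine enzyme, had 336 to 454 CPM in even-numbered and 281 to 308 CPM in odd-numbered libraries. NARS1, the asparagine enzyme, had 149 to 189 CPM in even-numbered against 129.6 to 148 CPM in odd-numbered libraries, a gap of under 2 CPM between library 2 and library 3. YARS1, the tyrosine enzyme, had 93.7 to 133 CPM in even-numbered against 83.0 to 89.8 CPM in odd-numbered libraries, with libraries 4, 8 and 12 at 126 to 133 CPM above all others. Copies of CARS1, GARS1, NARS1 and WARS1 are named in the reference table (CARS1P1, GARS1P1, NARS1P1 and WARS1P1 among them), as they are for AARS1, FARSB, KARS1, RARS1, IARS2, TARS2 and WARS2, so the levels of these genes are uncertain where reads were split between gene and copy.

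These 7 genes are all members of a list of 12 cytosolic synthetases known as ATF4 targets, and none of the 7 other cytosolic enzymes was higher in all even-numbered libraries. The list's mean level was 0.02 to 0.13 in libraries 2, 6 and 10 and 0.21 to 0.29 in libraries 4, 8 and 12, against -0.23 to -0.13 in libraries 1, 5 and 9 and -0.17 to -0.15 in libraries 3, 7 and 11. Its members did not all move together. SARS1 and WARS1 had libraries 2, 6 and 10 above the other 9 (16.7% of the list, against 18.8% of all genes). AARS1 and LARS1 had them below the other 9 (16.7%, against 16.3% of all genes). ATF4 binds, together with a C/EBP protein, a composite element written TGATGNAA. Promoter windows of RefSeq (GRCh38.p14), from 250 bases before to 50 after a gene's start, were searched on both strands for these letters. Of 27305 genes with a window, 1217 (4.46%) held a match. Among cytosolic synthetases 7 of 16 genes with a window did (43.8%), all of them in the ATF4 list (7 of 10, 70.0%), and 0 of 6 outside it. The mitochondrial genes held it in 1 of 14 (7.14%). The list holds genes already known as ATF4 targets, so its share of matches is not independent of how it was chosen. A match is a description of letters, and was not tied to binding or to a change in level. The stretches of 30 bases around all 8 matches are shown so that their letters and positions can be compared. Capitals mark the match, which reads TGATGNAA on the given strand or, as TTNCATCA, on the other, and each stretch runs 5' to 3' along the gene's strand.
CARS1 (chr11:3057407-3057436, - strand): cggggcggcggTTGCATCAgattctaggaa
GARS1 (chr7:30594834-30594863, + strand): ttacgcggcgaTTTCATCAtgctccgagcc
NARS1 (chr18:57621804-57621833, - strand): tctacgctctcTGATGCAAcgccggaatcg
TARS1 (chr5:33440956-33440985, + strand): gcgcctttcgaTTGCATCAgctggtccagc
AARS1 (chr16:70289675-70289704, - strand): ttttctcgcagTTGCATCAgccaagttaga
IARS1 (chr9:92293692-92293721, - strand): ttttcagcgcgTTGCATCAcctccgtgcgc
MARS1 (chr12:57488053-57488082, + strand): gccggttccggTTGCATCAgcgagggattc
YARS2 (chr12:32756076-32756105, - strand): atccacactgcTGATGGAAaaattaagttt
The first 4 of these belong to the 7 genes higher in all even-numbered libraries. The match began 2 bases before the window's start site in CARS1, 4 before it in MARS1, 13 before it in IARS1 and 33 before it in GARS1, and 2 bases after the start site in TARS1 and 14 after it in NARS1. In AARS1 and YARS2 it began 187 and 197 bases before the start site. The start sites used for GARS1 and TARS1 lie inside the annotated gene, downstream of its first base. Of the other 3 of those 7 genes, SARS1 and WARS1 had windows without these letters and YARS1 was not among the windows used here. EPRS1 had windows without them as well.

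Libraries 4, 8 and 12 were higher than libraries 3, 7 and 11 in 11 of 19 cytosolic genes (57.9%, against 8.98% of all genes) and in 0 of 15 mitochondrial genes. The 11 were CARS1, EPRS1, GARS1, IARS1, MARS1, NARS1, SARS1, TARS1, VARS1, WARS1 and YARS1, of which all but VARS1 are in the ATF4 list. They were lower in QARS1 alone among cytosolic genes and in EARS2, MARS2 and PARS2, 3 of 15, among mitochondrial ones, against 8.5% of all genes. MARS1 (chromosome 12, 57488068 to 57516652), the methionine enzyme, was read at 176, 186 and 193 CPM in libraries 2, 6 and 10 and at 342, 279.98 and 282 CPM in libraries 4, 8 and 12, against 174, 182 and 198 CPM in libraries 1, 5 and 9 and 204, 194 and 195 CPM in libraries 3, 7 and 11. MARS1 was high in libraries 4, 8 and 12, and the other 3 sets lay within 174 to 204 CPM. AARS1 (chromosome 16, 70252298 to 70289506), the alanine enzyme, was read at 151, 130.1 and 167 CPM in libraries 2, 6 and 10 and at 324, 227 and 258 CPM in libraries 4, 8 and 12, against 215, 217 and 191 CPM in libraries 1, 5 and 9 and 227, 199 and 221 CPM in libraries 3, 7 and 11. AARS1 was thus lowest in libraries 2, 6 and 10 and highest in library 4, while library 8 lay within 1 CPM of library 3, so the sets 4/8/12 and 3/7/11 overlapped. Against the other 9 libraries as a whole, libraries 4, 8 and 12 were higher in 5 of 19 cytosolic genes (GARS1, IARS1, MARS1, VARS1 and YARS1; 26.3%, against 1.18% of all genes). They were lower than the other 9 in 0 cytosolic genes and in 1 mitochondrial gene, MARS2 (6.67%, against 1.26% of all genes). IARS1, the isoleucine enzyme, had 158 to 167 CPM in libraries 4, 8 and 12 against 109 to 135 CPM in the other 9. VARS1, the cytosolic valine enzyme, had 52.8 to 63.0 CPM in that set. The other 9 had 42.0 to 49.9 CPM, so the gap was under 3 CPM.

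Libraries 2, 6 and 10 were higher than libraries 1, 5 and 9 in 9 of 19 cytosolic genes (47.4%, against 27.7% of all genes) and lower in 3 (15.8%, against 27.6% of all genes). The 9 were KARS1, RARS1 and the 7 genes higher in all even-numbered libraries, and the 3 lower genes were AARS1, LARS1 and QARS1. Against the other 9 libraries, 3 cytosolic genes were higher (RARS1, SARS1 and WARS1; 15.8%, against 18.8% of all genes) and the same 3 were lower (15.8%, against 16.3% of all genes), shares close to those of all genes. WARS1 (chromosome 14, 100333790 to 100376327), the tryptophan enzyme, was read at 94.96, 85.6 and 103 CPM in libraries 2, 6 and 10 and at 66.5, 71.4 and 67.4 CPM in libraries 4, 8 and 12, against 53.4, 64.8 and 58.6 CPM in libraries 1, 5 and 9 and 50.6, 59.9 and 57.5 CPM in libraries 3, 7 and 11. QARS1 (chromosome 3, 49095932 to 49104757), the glutamine enzyme, was read at 83.9, 78.1 and 89.1 CPM in libraries 2, 6 and 10 and at 114, 115 and 113 CPM in libraries 4, 8 and 12, against 133, 143 and 119 CPM in libraries 1, 5 and 9 and 123, 128 and 129.98 CPM in libraries 3, 7 and 11. In libraries 2, 6 and 10 WARS1 was at its highest and QARS1 at its lowest, with no overlap with any other set. RARS1, the arginine enzyme, had 123 to 135 CPM in libraries 2, 6 and 10 against 88.4 to 109.6 CPM in the other 9. LARS1, the leucine enzyme, had 80.8 to 85.2 CPM in libraries 2, 6 and 10 against 88.1 to 116 CPM in the other 9.

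**Figure D3:**
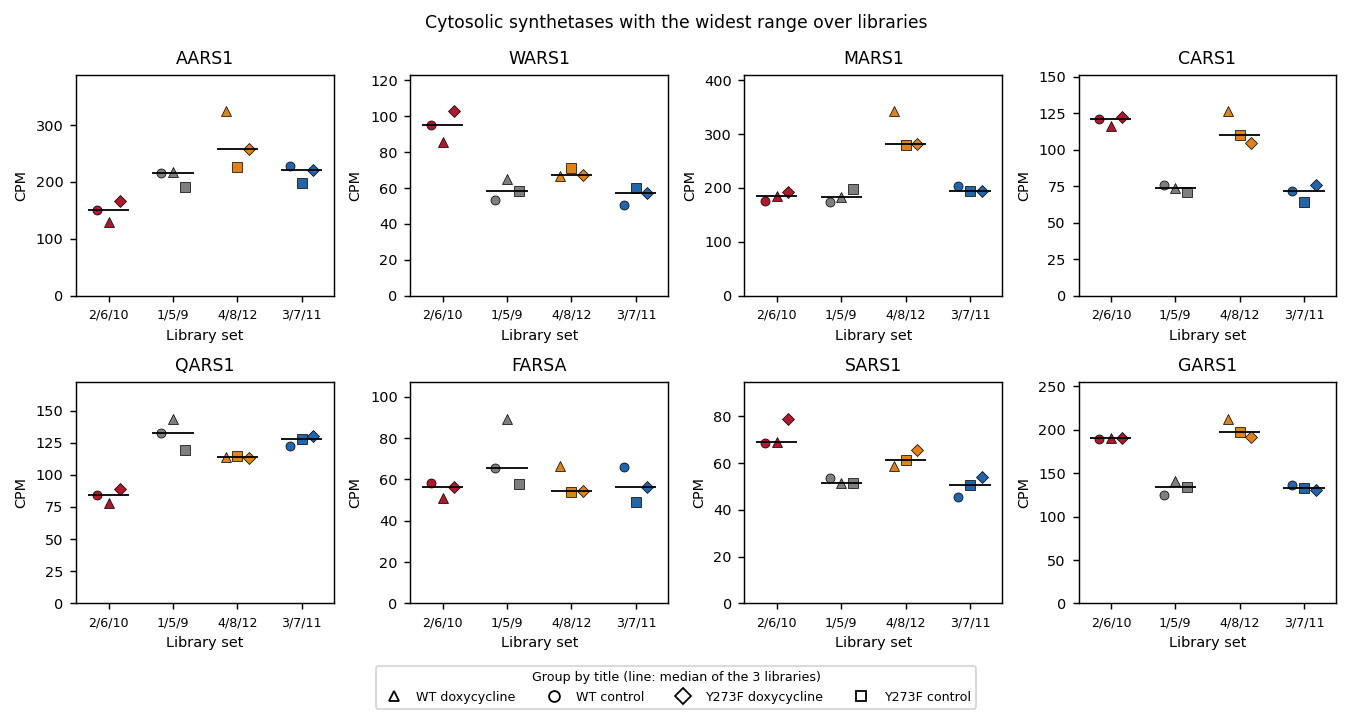
CPM of the 8 cytosolic synthetases with the widest range of log2 CPM, by library set; each point is a library, its shape the title group, and the line is the median of the set's 3 libraries. CARS1 and GARS1 are high in both even-numbered sets, MARS1 in libraries 4, 8 and 12 (279.98 to 342 CPM), WARS1 in libraries 2, 6 and 10 (85.6 to 103 CPM), and FARSA follows no set.

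Not every cytosolic enzyme followed the sets. FARSA (chromosome 19, 12922479 to 12933711), the catalytic subunit of the phenylalanine enzyme, was read at 58.1, 51.0 and 56.5 CPM in libraries 2, 6 and 10 and at 66.3, 53.8 and 54.2 CPM in libraries 4, 8 and 12, against 65.7, 89.1 and 57.7 CPM in libraries 1, 5 and 9 and 65.9, 48.9 and 56.1 CPM in libraries 3, 7 and 11. Its range came mainly from library 5, and the sets overlapped. FARSB, the other subunit, had 55.4 to 89.1 CPM over all libraries and HARS1, the histidine enzyme, 28.2 to 46.1 CPM, both with overlapping sets. KARS1 (chromosome 16, 75627724 to 75647665), the lysine enzyme of both compartments, had the smallest range of the cytosolic genes and was read at 235, 227 and 223 CPM in libraries 2, 6 and 10 and at 234, 211 and 215 CPM in libraries 4, 8 and 12, against 213, 220.5 and 208 CPM in libraries 1, 5 and 9 and 226, 203 and 219 CPM in libraries 3, 7 and 11. All 12 values of KARS1 lay between 203 and 235 CPM, although libraries 2, 6 and 10 were all above libraries 1, 5 and 9. For KARS1, 3 copies (KARS1P1, KARS1P2 and KARS1P3) are named in the table.

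Among the 7 enzymes of the multisynthetase complex (EPRS1, IARS1, LARS1, MARS1, QARS1, RARS1 and KARS1), no common pattern held for all. Their mean level was -0.12 to -0.05 in libraries 2, 6 and 10, 0.13 to 0.19 in libraries 4, 8 and 12, -0.10 to -0.02 in libraries 1, 5 and 9 and -0.07 to 0.01 in libraries 3, 7 and 11. None of the 7 was higher in all even-numbered libraries, against 3.51% of all genes. QARS1 was lower in all of them, 1 of 7 (14.3%, against 2.81% of all genes). EPRS1, which carries the glutamate and proline enzymes in a single chain, had 178 to 251 CPM in even-numbered and 152 to 184 CPM in odd-numbered libraries, which overlapped. Of the 3 scaffold genes, AIMP1 had 135 to 177 CPM and AIMP2 86.7 to 116 CPM over the 12 libraries. EEF1E1 varied more, with a range of 0.75 in log2 CPM against 0.39 for AIMP1 and 0.41 for AIMP2. It had 37.6 to 41.9 CPM in libraries 2, 6 and 10 against 45.6 to 63.3 CPM in the other 9. Of all genes, 16.3% were likewise lower in libraries 2, 6 and 10 than in the other 9.

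Mitochondrial enzymes were lower in libraries 2, 6 and 10 more often than higher. Against libraries 1, 5 and 9, 7 of 15 were lower (AARS2, EARS2, IARS2, NARS2, PARS2, SARS2 and TARS2), or 46.7% against 27.6% of all genes, and 2 were higher (CARS2 and YARS2), or 13.3% against 27.7%. TARS2 (chromosome 1, 150487419 to 150507602), the mitochondrial threonine enzyme, was read at 23.2, 18.2 and 24.7 CPM in libraries 2, 6 and 10 and at 37.3, 33.9 and 37.4 CPM in libraries 4, 8 and 12, against 34.5, 36.1 and 34.4 CPM in libraries 1, 5 and 9 and 34.1, 34.7 and 32.6 CPM in libraries 3, 7 and 11. EARS2 (chromosome 16, 23520754 to 23557375), which loads glutamate onto mitochondrial glutamate and glutamine tRNAs, was read at 19.6, 20.5 and 17.5 CPM in libraries 2, 6 and 10 and at 28.6, 26.2 and 29.02 CPM in libraries 4, 8 and 12, against 30.7, 26.7 and 30.1 CPM in libraries 1, 5 and 9 and 32.6, 29.3 and 34.0 CPM in libraries 3, 7 and 11. These were the 2 mitochondrial genes with libraries 2, 6 and 10 below all the other 9 (13.3%, against 16.3% of all genes), and CARS2, the mitochondrial cysteine enzyme, was the only one above all others, with 49.4 to 53.8 CPM in libraries 2, 6 and 10 against 34.5 to 42.8 CPM in the other 9 (6.67%, against 18.8% of all genes).

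PARS2 (chromosome 1, 54756898 to 54764523), the mitochondrial proline enzyme, was read at 5.85, 6.54 and 6.08 CPM in libraries 2, 6 and 10 and at 8.13, 4.32 and 8.59 CPM in libraries 4, 8 and 12, against 11.6, 9.91 and 8.85 CPM in libraries 1, 5 and 9 and 15.01, 10.5 and 13.1 CPM in libraries 3, 7 and 11. Among the mitochondrial genes tested it was the only one with the 6 even-numbered libraries below the 6 odd-numbered ones, by a gap of under 1 CPM, and library 8 was the lowest, on 13 counts. AARS2 (chromosome 6, 44298731 to 44313347), the mitochondrial alanine enzyme, was read at 9.45, 10.2 and 6.08 CPM in libraries 2, 6 and 10 and at 14.4, 11.6 and 9.56 CPM in libraries 4, 8 and 12, against 11.5, 13.4 and 11.3 CPM in libraries 1, 5 and 9 and 12.4, 12.04 and 11.7 CPM in libraries 3, 7 and 11. NARS2 (chromosome 11, 78435968 to 78574864), the mitochondrial asparagine enzyme, was read at 9.45, 11.7 and 12.2 CPM in libraries 2, 6 and 10 and at 13.6, 15.9 and 14.9 CPM in libraries 4, 8 and 12, against 14.3, 13.4 and 14.2 CPM in libraries 1, 5 and 9 and 13.99, 11.7 and 12.7 CPM in libraries 3, 7 and 11. AARS2 was lowest in library 10 and highest in library 4, and NARS2 was lowest in library 2 and highest in library 8. For both genes libraries 4, 8 and 12 overlapped libraries 3, 7 and 11. FARS2 (chromosome 6, 5249934 to 5771583), a single-chain phenylalanine enzyme of mitochondria, was read at 10.8, 14.1 and 19.7 CPM in libraries 2, 6 and 10 and at 15.2, 16.3 and 16.7 CPM in libraries 4, 8 and 12, against 13.8, 14.7 and 14.8 CPM in libraries 1, 5 and 9 and 15.2, 16.2 and 19.2 CPM in libraries 3, 7 and 11. Libraries 2, 6 and 10 alone covered the whole range of FARS2, so it followed no set. YARS2 (chromosome 12, 32746544 to 32755897), the mitochondrial tyrosine enzyme, had the smallest range of the mitochondrial genes tested and was read at 40.5, 41.9 and 42.2 CPM in libraries 2, 6 and 10 and at 39.5, 42.8 and 36.0 CPM in libraries 4, 8 and 12, against 34.2, 38.3 and 37.3 CPM in libraries 1, 5 and 9 and 38.3, 35.9 and 33.2 CPM in libraries 3, 7 and 11. MARS2, the mitochondrial methionine enzyme, had 2.66 to 3.48 CPM in libraries 4, 8 and 12 against 3.58 to 6.68 CPM elsewhere, opposite in direction to MARS1 but by a gap of under 1 CPM and on 8 to 32 counts a library. The remaining mitochondrial genes, HARS2, IARS2, LARS2, RARS2, SARS2 and WARS2, stayed between 9.30 to 13.5 CPM for WARS2 at the low end and 90.2 to 134 CPM for IARS2 at the high end.

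**Figure D4:**
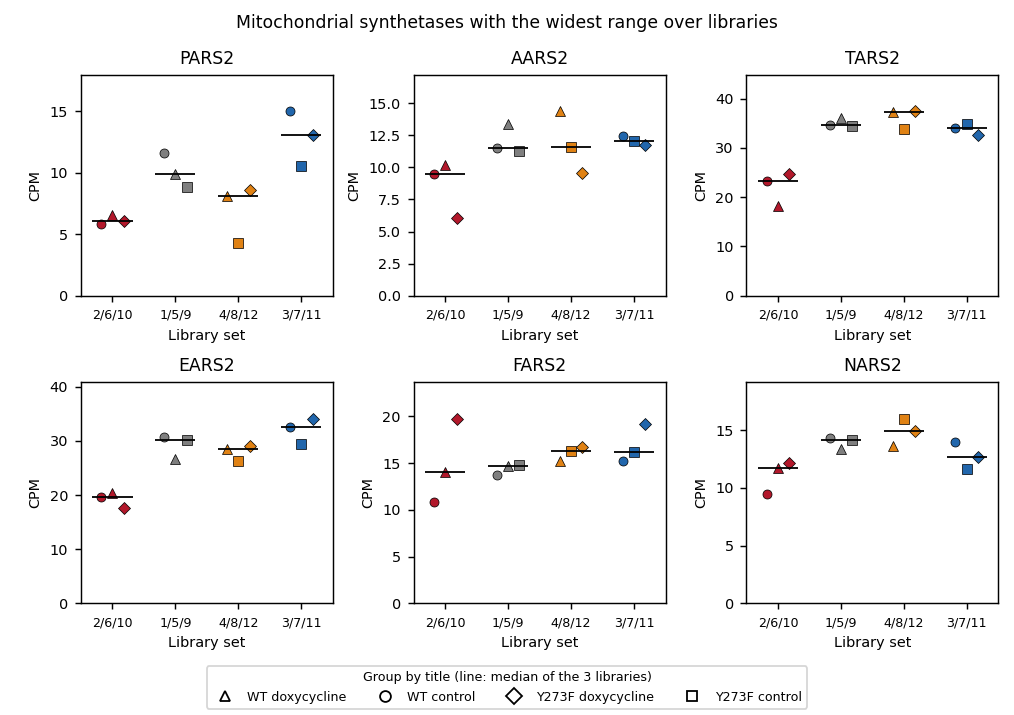
CPM of the 6 mitochondrial synthetases with the widest range of log2 CPM, by library set; each point is a library, its shape the title group, and the line is the median of the set's 3 libraries. TARS2 and EARS2 are lowest in libraries 2, 6 and 10 (18.2 to 24.7 and 17.5 to 20.5 CPM), PARS2 is lower in both even-numbered sets, and FARS2 follows no set.

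For 12 amino acids a cytosolic and a mitochondrial enzyme with matching names were both tested. Between libraries 2, 6 and 10 and libraries 1, 5 and 9, 3 of these pairs moved the same way, 3 moved in opposite ways, and in 6 at least 1 enzyme overlapped. Of all genes, 27.7% were higher and 27.6% lower in that comparison, and whether the pairs depart from these shares was not tested. Between libraries 4, 8 and 12 and libraries 3, 7 and 11, 1 pair moved in opposite ways (MARS1 and MARS2). In the other 11 at least 1 enzyme overlapped. In libraries 2, 6 and 10 CARS1 and CARS2 were both higher than in libraries 1, 5 and 9, as were YARS1 and YARS2, and AARS1 and AARS2 were both lower. TARS1 was higher there (375 to 454 CPM in libraries 2, 6 and 10 against 281 to 308 CPM in libraries 1, 5 and 9) while TARS2 was lower, and NARS1 was higher (149 to 189 CPM in libraries 2, 6 and 10 against 129.6 to 139.5 CPM in libraries 1, 5 and 9) while NARS2 was lower. SARS1 and SARS2 were likewise opposite, SARS2 with 19.8 to 23.1 CPM in libraries 2, 6 and 10 against 25.5 to 29.3 CPM in libraries 1, 5 and 9.

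Genes around the synthetases were read from lists chosen in the same way. Of 20 genes of amino acid supply and the stress response, 19 were tested, and ASNS, which makes asparagine, had at most 1.8 CPM. Their mean level was 0.31 to 0.32 in libraries 2, 6 and 10 and 0.21 to 0.52 in libraries 4, 8 and 12, against -0.36 to -0.33 in libraries 1, 5 and 9 and -0.35 to -0.28 in libraries 3, 7 and 11. In 8 of the 19 (42.1%, against 3.51% of all genes) all even-numbered libraries were higher than all odd-numbered ones, among them the transporter genes SLC3A2 (416 to 686 CPM in even-numbered against 287 to 368 CPM in odd-numbered libraries) and SLC7A11 (365 to 494 CPM in even-numbered against 279.9 to 327 CPM in odd-numbered libraries). ATF4 mRNA itself overlapped, with 329 to 440.3 CPM in even-numbered and 315 to 359 CPM in odd-numbered libraries. The serine synthesis genes PHGDH and PSAT1 were highest in libraries 4, 8 and 12, PHGDH at 98.6 to 129 CPM there against 21.5 to 61.2 CPM in the other 9 and PSAT1 at 182 to 221 CPM there against 92.2 to 131 CPM in the other 9. PSPH, which completes serine synthesis, was instead highest in libraries 2, 6 and 10, at 66.6 to 77.6 CPM against 40.1 to 63.7 CPM in the other 9. Of the 19 genes, 5 had libraries 4, 8 and 12 above the other 9 (26.3%, against 1.18% of all genes). Libraries 2, 6 and 10 were above the other 9 in 7 of the 19 (36.8%, against 18.8% of all genes). In mitochondria, glutamine tRNA is completed by an amidotransferase, and its subunit GATB had 6.53 to 7.66 CPM in libraries 2, 6 and 10 against 9.59 to 13.8 CPM in the other 9. GATC had 52.3 to 56.7 CPM in libraries 2, 6 and 10 against 58.2 to 80.0 CPM in the other 9. The third subunit, QRSL1, had 16.1 to 19.2 CPM in libraries 2, 6 and 10 against 15.2 to 22.9 CPM in the other 9, which overlapped. MTFMT, which formylates the initiator methionyl-tRNA, had 29.9 to 40.2 CPM over all libraries. The elongation factor gene EEF1A1, which has many copies in the genome and whose product delivers charged tRNA to the ribosome, had 939.9 to 965 CPM in libraries 2, 6 and 10 against 1305 to 1714 CPM in the other 9. Its mitochondrial counterpart TUFM had 149.6 to 168 CPM in libraries 2, 6 and 10 against 162 to 218 CPM in the other 9, which overlapped. GATB and GATC, 2 of 4 genes of amidotransferase and formylation, and EEF1A1, 1 of 4 tested genes of export and delivery, were thus lower in libraries 2, 6 and 10 than in any other library, as were 16.3% of all genes. The tRNA export gene XPOT had 59.1 to 91.3 CPM, and the proofreading gene DTD1 68.0 to 112 CPM. Another proofreading gene, DTD2, had 28.3 to 36.4 CPM in even-numbered against 37.7 to 44.7 CPM in odd-numbered libraries. It was the 1 of 4 proofreading genes lower in all even-numbered libraries (25%, against 2.81% of all genes).

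Between the groups of the titles, WT doxycycline was first set against WT control, to ask what induced wild-type DYRK1B changed. At an adjusted p of 0.05 in edgeR's quasi-likelihood test no synthetase passed, with 0% of 13047 genes called. At an unadjusted p under 0.05 there were 0 of the 34 members and 118 of all genes. DESeq2 called 0 genes (110 at that unadjusted level), and so did limma-voom (145). The log2 fold change was positive in 16 of 19 cytosolic genes, with a median of 0.13, and in 8 of 15 mitochondrial genes, with a median of 0.03, beside 49.6% of all genes and a median of -0.0016. In the ATF4 list 12 of 12 were positive, with a median of 0.22. For doxycycline in the Y273F line 8 of the 12 were positive, with a median of 0.06, beside 51.7% of all genes. For Y273F control against WT control, both without doxycycline, 9 of the 12 were positive, with a median of 0.10, beside 46.2% of all genes. MARS1 was read at 342, 182 and 186 CPM in WT doxycycline 1 to 3, against 174, 176 and 204 CPM in WT control 1 to 3, a log2 fold change of 0.36 (95% interval -0.20 to 0.92). Only WT doxycycline 1 was high, and without it the MARS1 log2 fold change was -0.004. CARS1 had 126, 73.7 and 117 CPM in WT doxycycline 1 to 3, against 76.0, 122 and 71.9 CPM in WT control 1 to 3 (log2 fold change 0.24, 95% interval -0.40 to 0.87), with a high control library and a low doxycycline library. AARS1 (log2 fold change 0.18, 95% interval -0.45 to 0.80), WARS1 (log2 fold change 0.13, 95% interval -0.45 to 0.71) and GARS1 (log2 fold change 0.27, 95% interval -0.24 to 0.78) likewise had intervals that include 0. Groups did not overlap in 2 cytosolic genes, both higher with doxycycline (10.5%, against 1.56% of all genes), in 0 lower (against 1.63% of all genes) and in 0 mitochondrial genes. These were EPRS1, with 212, 184 and 214 CPM in WT doxycycline 1 to 3, against 153, 178 and 152 CPM in WT control 1 to 3, and IARS1. IARS1 had 163, 122 and 131 CPM in WT doxycycline 1 to 3, against 109, 118 and 114 CPM in WT control 1 to 3. Both are named after their values were seen, and neither passed the test (unadjusted p of 0.0687 for EPRS1 and 0.0997 for IARS1). Of the WT doxycycline libraries 2 are even-numbered (WT doxycycline 1 and 3), and of the WT controls 1 is (WT control 2). Without WT control 2 the cytosolic median was 0.25 and the mitochondrial median -0.0139. The mitochondrial median stayed positive when any other library was left out, at up to 0.0873.

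For doxycycline in the Y273F line, again 0% of 13047 genes and no synthetase passed, with 215 genes and no member at an unadjusted p under 0.05 in edgeR, and 214 and 199 genes in DESeq2 and limma-voom. The median log2 fold change was 0.06 for cytosolic genes (13 of 19 positive) and -0.06 for mitochondrial genes (5 of 15 positive), beside 0.01 for all genes. Leaving out Y273F doxycycline 3 brought the cytosolic median to -0.0041, and leaving out Y273F control 2 to 0.1282. The mitochondrial median was -0.1364 without Y273F doxycycline 2 and -0.0021 without Y273F doxycycline 1. Again 2 of the doxycycline libraries (Y273F doxycycline 1 and 3) and 1 control (Y273F control 2) are even-numbered. CARS1 was read at 123, 75.8 and 105 CPM in Y273F doxycycline 1 to 3, against 64.3, 110.3 and 71.3 CPM in Y273F control 1 to 3, a log2 fold change of 0.31 (95% interval -0.33 to 0.94). The groups overlapped. SARS1 had 78.7, 53.9 and 65.4 CPM in Y273F doxycycline 1 to 3, against 50.5, 61.4 and 51.4 CPM in Y273F control 1 to 3 (log2 fold change 0.28, 95% interval -0.14 to 0.69). PARS2 had 6.08, 13.1 and 8.59 CPM in Y273F doxycycline 1 to 3, against 10.5, 4.32 and 8.85 CPM in Y273F control 1 to 3 (log2 fold change 0.20, 95% interval -0.69 to 1.09). Among mitochondrial genes AARS2 and HARS2 had the lowest log2 fold changes, both -0.33. AARS2 had 6.08, 11.7 and 9.56 CPM in Y273F doxycycline 1 to 3, against 12.04, 11.6 and 11.3 CPM in Y273F control 1 to 3 (log2 fold change -0.33, 95% interval -0.86 to 0.20). Non-overlapping groups were found in FARSB and KARS1 (higher, 10.5% of cytosolic genes), FARS2 and WARS2 (higher, 13.3% of mitochondrial genes) and HARS2 (lower, 6.67%), against 5.46% of all genes higher and 5.46% lower. HARS2, the mitochondrial histidine enzyme, had 29.7, 31.7 and 30.6 CPM in Y273F doxycycline 1 to 3, against 36.0, 46.5 and 34.1 CPM in Y273F control 1 to 3, with the smallest unadjusted p among the members (0.0527, adjusted p = 0.9898).

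The difference between both doxycycline effects (WT minus Y273F) asks whether the response depended on the form of the kinase. Of 13047 genes 0% passed, and the unadjusted p was under 0.05 in 160 genes and 0 members with edgeR, and in 141 and 154 genes with DESeq2 and limma-voom. The median difference was 0.11 for cytosolic genes (12 of 19 positive) and 0.08 for mitochondrial genes (8 of 15 positive), beside -0.02 for all genes. The cytosolic median was 8e-04 without WT doxycycline 1 and 0.0316 without Y273F control 2. The mitochondrial median turned negative without WT control 2 (-0.0327), without WT doxycycline 2 (-0.0364) and without Y273F doxycycline 1 (-0.0365). It was 0.36 (95% interval -0.43 to 1.15) for MARS1 and -0.07 (95% interval -0.97 to 0.83) for CARS1, and among mitochondrial genes 0.51 (95% interval -0.23 to 1.24) for AARS2 and -0.62 (95% interval -1.86 to 0.63) for PARS2. All of these intervals include 0, and differences within their bounds were not detectable in these libraries.

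Between the lines without doxycycline, Y273F control against WT control, 0% of 13047 genes passed with edgeR, with 445 genes and 0 members at an unadjusted p under 0.05. DESeq2 and limma-voom called 0 as well, with 471 and 454 genes at that unadjusted level, and DESeq2 had 1 member there. The median log2 fold change was 0.05 for cytosolic genes (13 of 19 positive) and 0.06 for mitochondrial genes (10 of 15 positive), beside -0.03 for all genes. Without Y273F control 2 both medians were negative (-0.0225 cytosolic, -0.0129 mitochondrial). The cytosolic median was also negative without WT control 3 (-0.0076), and the mitochondrial one without WT control 2 (-0.0346). FARSA had 48.9, 53.8 and 57.7 CPM in Y273F control 1 to 3 against 65.7, 58.1 and 65.9 CPM in WT control 1 to 3 (log2 fold change -0.24, 95% interval -0.62 to 0.14), the lowest fold change of the cytosolic genes, with all Y273F values below the WT values. MARS1 had 194, 279.98 and 198 CPM in Y273F control 1 to 3, against 174, 176 and 204 CPM in WT control 1 to 3 (log2 fold change 0.28, 95% interval -0.28 to 0.84), where Y273F control 2 alone was high. Groups did not overlap in 1 cytosolic gene that was higher in Y273F control, IARS1 (5.26%, close to the 5.62% of all genes). IARS1 had 133, 167 and 135 CPM in Y273F control 1 to 3, against 109, 118 and 114 CPM in WT control 1 to 3 (edgeR, unadjusted p = 0.0505, adjusted p = 0.9914). The WT control libraries also served against WT doxycycline, where IARS1 did not overlap either. Among mitochondrial genes IARS2 and RARS2 were higher (13.3%, against 5.62% of all genes). FARSA and KARS1 (10.5%) and the mitochondrial MARS2 and WARS2 (13.3%) were lower, against 5.24% of all genes. The Y273F control libraries also served against Y273F doxycycline, where KARS1 and WARS2 were higher with doxycycline and did not overlap either.

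**Figure D5:**
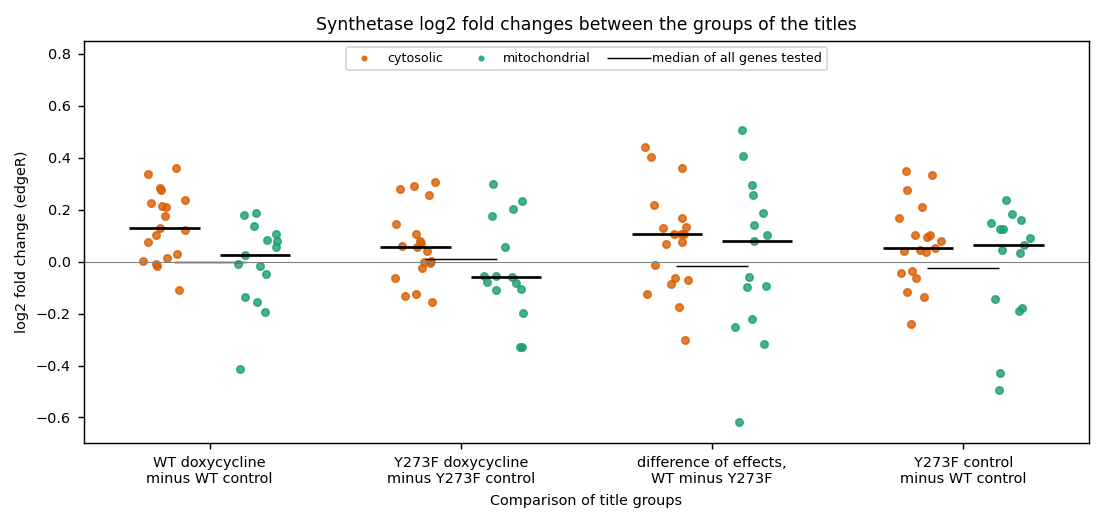
Log2 fold changes from edgeR of the 19 cytosolic and 15 tested mitochondrial synthetases in the 4 comparisons of title groups. Each point is a gene, thick lines are medians of the members and thin lines medians of all 13047 genes; member medians lie between -0.06 and 0.13, and no gene passed an adjusted p of 0.05.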

How the data were processed

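Per the labels' protocols, column-purified RNA was made into QuantSeq FWD V2 libraries. STAR and GRCh38.p14 are the aligner and build named in the submitters' processing notes, while the sources used here give no STAR version, annotation release or treatment of molecular identifiers. Counts of reads per gene were deposited by library and as a merged table, whose 40605 rows equal transcript-strand rows in all 12 libraries. Reads assigned to no gene, 35.5% to 43.2% of a library, are not in that table.

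Rows were filtered with filterByExpr (minimum count 10), leaving 13047, scaled with TMM and tested by the quasi-likelihood test of edgeR 4.0.16 in R 4.3.3, all 4 title groups in a single model, at a Benjamini-Hochberg adjusted p under 0.05. Log2 CPM used a prior count of 2. P-values measure the spread between these libraries, and floors of 3 counts cover counting error only. Replicate numbers did not pair the samples. No libraries agreed within sampling noise (chi-square per degree of freedom at least 3.818 over 66 pairs).

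Values in every library are given for the 8 cytosolic and 6 mitochondrial genes with the largest range of log2 CPM (mean CPM no lower than 5) and for the gene with the smallest range in each group. Members, lists, library sets and this rule were chosen with earlier results of these data known. The procedure was tested on simulated counts that held no library sets. What the title comparisons could detect in these libraries was not taken from that simulation. Alternatives were DESeq2 1.42.0 (Wald test, size factors), limma-voom 3.58.1, upper-quartile factors, unstranded counts, a stricter or no filter, all gene identifiers, a replicate block, only the groups compared, and leaving out libraries 2, 6 and 10 or each library in turn.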

Additional observations from a re-analysis of the deposited data

How the results depend on the processing

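In the 4 comparisons of title groups, no synthetase passed the threshold under any alternative run. Over all genes, 0 were called, with 0 to 1 when a single library was left out for doxycycline in the Y273F line, for the difference of effects and for Y273F control against WT control. The cytosolic median log2 fold change for WT doxycycline against WT control (0.13) ranged from 0.0851 to 0.2473 when each library was left out, highest without WT control 2. The mitochondrial median of the difference of effects (0.08) ranged from -0.0365 to 0.1617, and was lowest without Y273F doxycycline 1 or WT doxycycline 2 (-0.0364). The cause was not tested. All other medians moved by less than the spread between libraries, a spread wide enough that several medians near 0 changed sign when 1 library was left out. Of 546 refits of single-gene fold changes (AARS1, CARS1, MARS1, WARS1, AARS2 and PARS2), 543 stayed within 1 SD.

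With the replicate block no synthetase passed, and the cytosolic median for WT doxycycline against WT control was 0.15. Same-numbered samples did not deviate together (r of -0.685 to 0.575, above 0.1 in 3 of 18 pairs), so the numbers do not pair the samples.

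Under 6 alternatives of scaling and filtering, the number of synthetases that separated libraries 2, 6 and 10 from the other 9 was 9 to 10, libraries 2, 6 and 10 from libraries 1, 5 and 9 was 21 to 22, libraries 4, 8 and 12 from libraries 3, 7 and 11 was 15 to 16, and even-numbered from odd-numbered libraries was 8 to 9. Low counts limit MARS2 and PARS2, and VARS2 could not be assessed.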
